A study of Salmo salar with 34 samples.

Results

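The comparison of mineral source at the high supplementation level rests on 15 midgut arrays of Atlantic salmon, 1 fish per array: 6 fish fed inorganic minerals (IM) and 9 fish fed organic minerals (OM). They are 15 of the 34 arrays of the series, and the fish were taken from the sample labels that name a high level of inorganic or of organic minerals. The IM fish were 4 females and 2 males, and the OM fish were 3 females and 6 males. All were post-smolts kept in seawater tanks under continuous light, and fish of every tank were handled repeatedly as a stress midway through the trial. In the last weeks before the final sampling, oxygen saturation was held at a suboptimal level in all tanks alike. The gut was sampled after 12 weeks of feeding. The diets carried a premix of copper, iron, manganese, selenium and zinc. In IM diets the metals were given as sulphates with selenium as sodium selenite, and in OM diets as Bioplex metals and Selplex selenium. No untreated group exists, so the 9 OM fish are the group the IM fish are set against. Which numbered diet is the high one is not given in the labels. Tank was not used here as a term, so tank mates counted as independent fish, and p-values therefore measure only the spread between these fish.

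The midgut absorbs nutrients through enterocytes, and trace metals enter these cells through dedicated transporters in the apical membrane. Copper, zinc, manganese and selenium are cofactors or constituents of antioxidant enzymes, while iron is needed for oxygen transport and for respiration. In organic sources the metal is bound to amino acids or peptides, and selenium is carried by selenised yeast, whereas inorganic salts release free ions in the gut. Whether the chemical form of these minerals, supplied at a high level, went with different gene expression in the gut was the question of the comparison.

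Each array carried 14841 probes, of which 11696 were tested, those with a signal well above background on 6 or more of the 15 arrays. Expression was taken as relative signal, the log2 of the background-subtracted intensity minus the 75th percentile of the same array. Differences are IM minus OM, so that a negative value means lower signal in IM. Probes are given by the identifiers of the array, because 0 of the 14841 identifiers were found in the salmon gene table used here. For that reason neither pathways nor markers of gut cell types could be counted, and the labelled tissue was not checked against its markers. In whole-gut RNA, fewer cells of a type and less RNA per cell cannot be told apart.

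The 3 OM females stood apart from the other 12 fish before any test. On the first principal component, which held 35.9% of the variance over 11435 probes, their scores were 110.7, 93.2 and 60.2, while the other 12 fish lay between -38.5 and 3.67. The 2 IM males, at -18.1 and -15.5, lay within the range of the 6 OM males, -35.6 to -9.20. The second component (16.8%) did not set the OM females apart as a group, with scores of -21.3, 68.0 and -35.7. The signal of the OM females was also spread over a smaller range. The SD of the log2 signal over all probes was 2.98, 3.03 and 3.12 in OM females, against 3.30 to 3.72 in the other 12 fish.

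**Figure D1:**
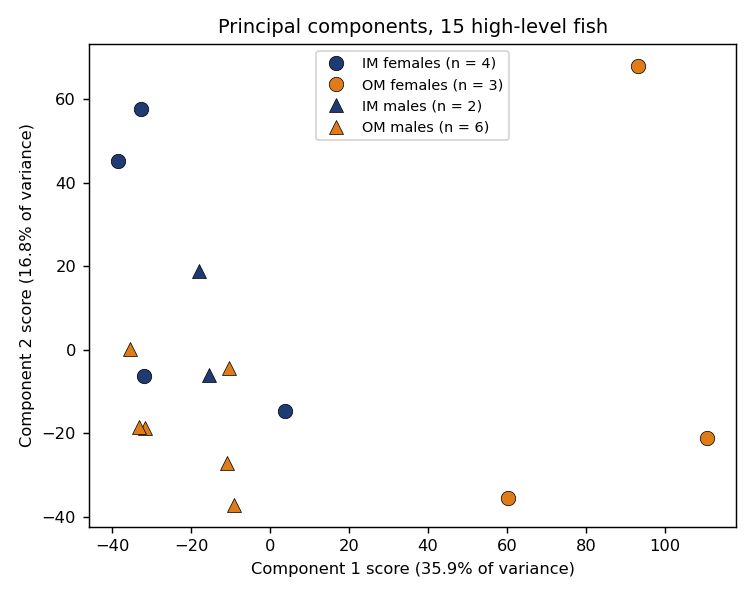
Scores of the 15 high-level fish on the first (x axis) and second (y axis) principal component of the log2 relative signal, in arbitrary units, 1 point per fish, with circles for females and triangles for males. The 3 OM females lie at 60.2 or more on the first component, and the other 12 fish lie at 3.67 or less.

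Array brightness differed between the sources as well. The 75th percentile of the intensity was 326 ± 52.5 units in IM (SD, n = 6) and 209 ± 80.3 units in OM (SD, n = 9), with p = 0.00719 in a two-sided exact permutation test and 0.0432 after Benjamini-Hochberg adjustment over 6 tests. Among females, all 4 IM arrays (278 to 361 units) were brighter than all 3 OM arrays (90.4 to 195 units), and the exact permutation p of 0.0571 is the smallest that 4 against 3 fish allow. The SD of the log2 signal was 3.51 ± 0.16 in IM (n = 6) and 3.28 ± 0.19 in OM (n = 9), which did not pass after adjustment (exact permutation p = 0.0320, adjusted 0.0857). Dim arrays were not confined to the OM females: OM males 5 and 6 had 75th percentiles of 143 and 123 units. Their scores on the first component were -10.9 and -9.20. The other OM males, at 258 to 308 units, scored -35.6 to -10.3. The number of probes well above the background did not separate the sources, with 10931 ± 1143 in IM (n = 6) and 11546 ± 865 in OM (n = 9, exact permutation p = 0.274). The part of brightness and signal spread in the differences between the sources was not tested.

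**Figure D2:**
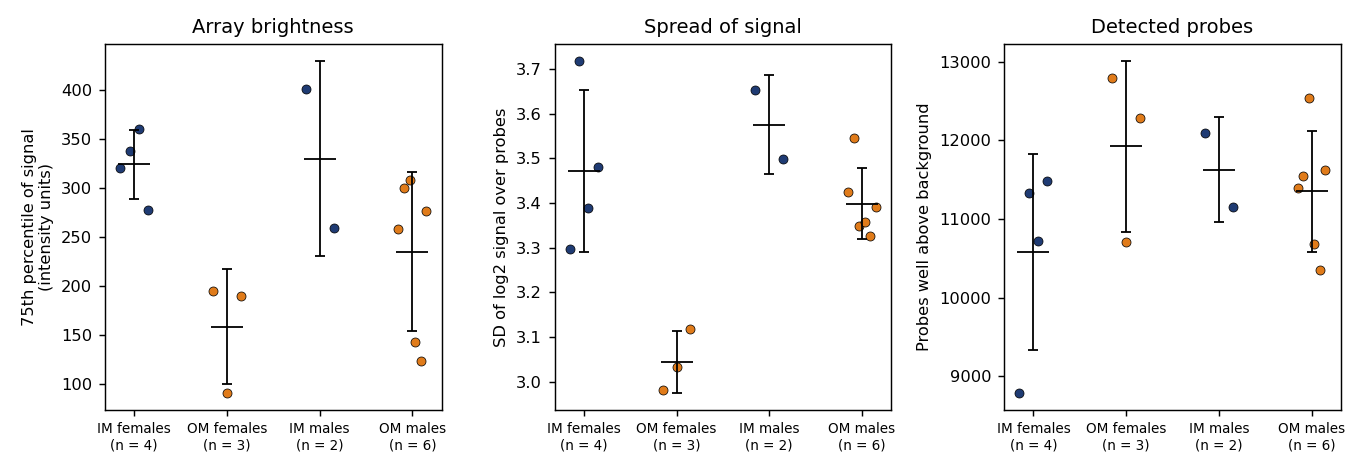
The 75th percentile of intensity, the SD of log2 signal over probes and the number of probes well above the background (y axes) in IM females, OM females, IM males and OM males (x axis), 1 point per array, with the mean and SD as bars. The 3 OM females lie below the other 12 arrays in the SD of log2 signal, at 2.98 to 3.12, and OM males reach as low as 123 units in the 75th percentile.

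With both sexes in 1 fit and sex as a term, 1474 of 11696 probes (12.6%) were differentially expressed genes (DEG) by the criteria of the study, a fold change above its minimum (0.81 on the log2 scale) and an unadjusted p under 0.05. The direction was uneven, as 32 probes (0.274%) were higher and 1442 (12.3%) lower in IM. The median difference of the lower probes was -1.33 (log2), and 179 of them differed more than 4-fold. After Benjamini-Hochberg adjustment of the p-values from limma, 49 probes (0.419%) remained past 0.05, all lower in IM, at a median difference of -2.05. The median over all probes tested was 0.012, with a median SE of 0.26.

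Most probes of this count were highest in the OM females. In 1042 of the 1442 probes lower in IM, the 3 OM females were the 3 highest of the 15 fish. Over all 11435 probes measured on every array they were the 3 highest in 1350 (11.8%). The 1442 were picked in the same fish, so the 1042 follow in part from that choice. The same 1442 probes had a median difference of -2.29 in females and -0.22 in males. Without the 3 OM females, the 6 IM fish set against the 6 OM males with no sex term gave 476 DEG (4.07%), 64 higher and 412 lower in IM, and 0 probes past the adjusted threshold, with 1366 at an unadjusted p under 0.05. In that setting all OM fish were male and 4 of the 6 IM fish female, so source and sex overlapped. With all 15 fish, leaving out the sex term gave 748 DEG and 1 adjusted probe, against 1474 and 49 with it. The part of the OM females alone in the lower count was not tested. Single arrays also decided the adjusted count: it was 994 without IM male 2, 440 without IM male 1 and 94 without OM male 2, and 3 to 15 without any 1 of 11 others. Only the omission of OM male 1 left it within 1.5 times of 49. Across all 15 fish, IM and OM were fully separated in 11 probes (0.0962% of 11435), all of them lower in IM.

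Females were therefore compared apart from the pooled fit, as 4 IM against 3 OM fish. The contrast came from a fit with 1 mean for each source and sex, so the males shared in the estimate of the spread. In females 2465 of 11696 probes (21.1%) were DEG, with 281 (2.4%) higher and 2184 (18.7%) lower in IM. Of the lower probes, 991 differed more than 4-fold and 332 more than 8-fold, and their median difference was -1.90 in females and -0.10 in males. They were picked in the females, so the larger female median follows in part from that choice. The 170 probes picked as lower in IM in males had medians of -1.2 in males and -0.28 in females. In females 1710 probes (14.6%) passed after adjustment of limma's p-values, 46 higher and 1664 lower in IM. The number of higher probes hung on single arrays. Without OM female 5 it was 739 by the criteria and 438 after adjustment, and without OM female 4 it was 150 and 41. Without IM female 4 it was 159 and 17, and without IM female 1 it was 212 and 20. Without IM female 6 the adjusted number was 83. The number of lower probes stayed between 1944 and 2425 by the criteria when any 1 female was left out. Fitted without the males, the 7 females gave 2107 DEG of 11696 probes, 136 higher and 1971 lower in IM. In that fit 1181 passed after adjustment, 6 higher and 1175 lower in IM. All 4 IM females lay below all 3 OM females in 1805 of 11562 probes (15.6%), and above them in 326 (2.82%). With 4 against 3 fish some probes separate fully by chance, and these shares were not tested. Detection was counted over all 14841 probes of the array. In females 316 of the 14841 were well above the background on every OM array and on no IM array, and 2 showed the reverse. In males the numbers were 2 and 2. The male pattern was asked of 6 OM and 2 IM arrays and the female one of 3 OM and 4 IM arrays. The numbers of the 2 sexes are thus not directly comparable. These counts depend in part on how many probes each array detected. That number was 10582 ± 1242 in IM females (SD, n = 4) and 11929 ± 1087 in OM females (SD, n = 3, exact permutation p = 0.229). It was lowest in IM female 1, at 8786. For 94 of the 14841 probes, the 3 OM females were the only high-level fish with a signal well above the background.

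In males the comparison of 2 IM with 6 OM fish gave 229 DEG among 11695 probes (1.96%), of which 59 were higher and 170 lower in IM. No probe passed after adjustment (0 by limma, with 355 at an unadjusted p under 0.05). The 2 IM males lay below all 6 OM males in 527 of 11521 probes (4.57%) and above them in 606 (5.26%). With 2 against 6 fish some probes separate fully by chance, and these shares were not tested. The count of DEG was 438 without IM male 2 and 123 without IM male 1. In both settings 1 IM male was set against 6 OM males, and the lone male was assumed to vary like the other groups.

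The difference between the sexes was tested by itself. The IM minus OM difference of females minus that of males passed the criteria in 2026 of 11695 probes (17.3%) and the adjusted threshold in 660 (5.64%), 18 positive and 642 negative. In 624 of the 642, the OM females were the 3 highest of the 15 fish, against 1350 (11.8%) of all 11435 probes measured on every array. High signal in OM females makes this contrast negative, so the 624 follow in part from the choice of probes. The adjusted count was 151 without IM male 2, 273 without IM male 1 and 322 without OM female 3. Without OM female 5 it was 901, with 205 positive and 696 negative. Females were also compared with males within each source, a contrast added after the data had been seen. Within OM, females differed from males in 2753 of 11696 probes (23.5%), 1921 higher and 832 lower in females, and 1874 (16%) passed after adjustment. Within IM, 224 of 11695 probes (1.92%) differed between females and males, and 1 (0.00855%) passed after adjustment. These contrasts share fish with the comparisons of source. All males of both sources were scanned on the second scan day, whereas IM females 1 and 3 and OM females 3 and 4 were scanned on the first. Sex and scan day thus overlapped in part, and neither scan day nor slide was a term in the contrasts within each source. The part of scan day in these counts was not tested.

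**Figure D3:**
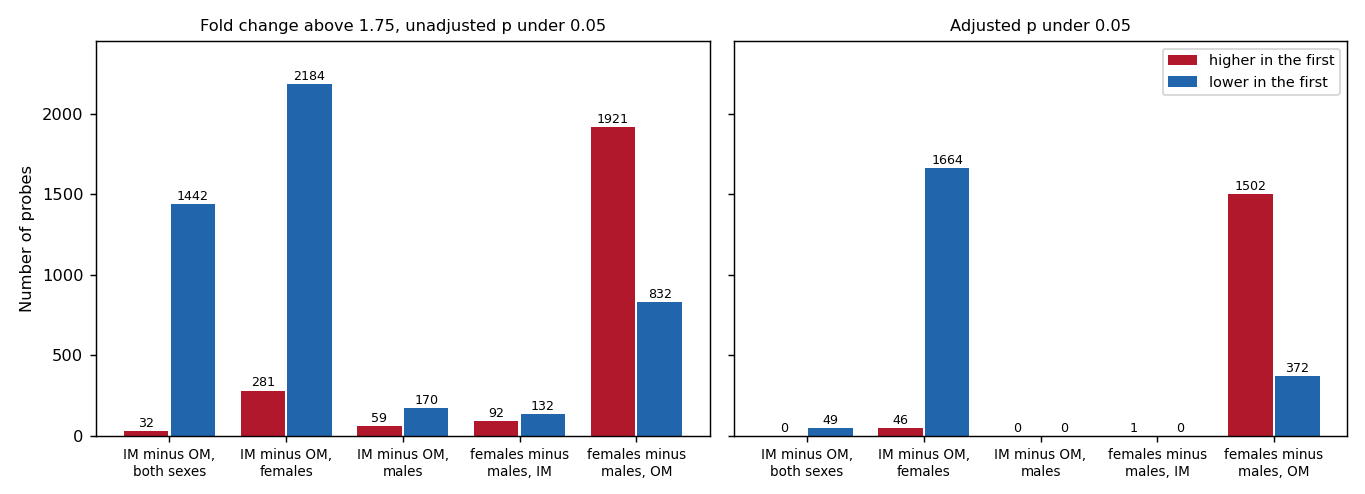
Number of probes (y axis) past the fold change criterion (0.81 on the log2 scale) with unadjusted p under 0.05 (left) and past an adjusted p under 0.05 (right) in 5 contrasts (x axis), with red bars for probes higher and blue bars for probes lower in the group named first. In females 1664 probes were lower in IM after adjustment, in males 0, and in OM 1502 probes were higher in females than in males.

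Among females, both scan days and slides 2 and 7 held fish of both sources. IM females 1 and 4 lay on slides 1 and 3, which held no OM female. On slide 2, with 1 IM and 2 OM females, 911 of 11694 probes were higher and 2989 lower in IM by more than 0.81 on the log2 scale. On slide 7, with 1 IM and 1 OM female, 1387 of 11612 were higher and 2194 lower in IM by the same amount. These counts by slide were not tested. Within the first scan day (2 IM and 2 OM females) 3380 probes (28.9%) were DEG and 2245 (19.2%) passed after adjustment. Within the second (2 IM females and 1 OM female) the counts were 1471 (12.6%) and 298 (2.55%), in a limma fit that pooled the spread over all fish and assumed that the lone OM female varied like the other groups. With the slide as a fixed block the female difference passed in 1322 probes. Both slides and both days thus held more probes lower than higher in IM with scaling to the 75th percentile. Slides and days are not separate observations, as OM females 3 and 4 were those of slide 2 and of the first day. OM female 5 was that of slide 7 and of the second day. The counts by slide and by day were not repeated under quantile normalization.

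The difference between females was largest among dim probes. When the 11696 probes were split into 5 classes of equal size by their mean signal, the share of DEG in females was 48.6% in the dimmest class, 30.7% in the next, then 14.9%, 7.1% and 4.1% in the brightest. The dimmest class held 44 probes higher and 1094 lower in IM, with a median difference of -0.94. The brightest class held 49 higher and 47 lower, with a median of 0.18. In males the share of DEG was 4.36% in the dimmest and 1.11% in the brightest class, and the medians were -0.15 and 0.11. Where the signal was well above background in all 15 fish, 10.9% of the probes (873 of 8016) were DEG in females, 133 higher and 740 lower in IM, and 539 (6.72%) passed after adjustment. The same 8016 probes gave 422 DEG (5.26%) in the pooled fit, 21 higher and 401 lower in IM, and 1 (0.0125%) passed after adjustment.

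**Figure D4:**
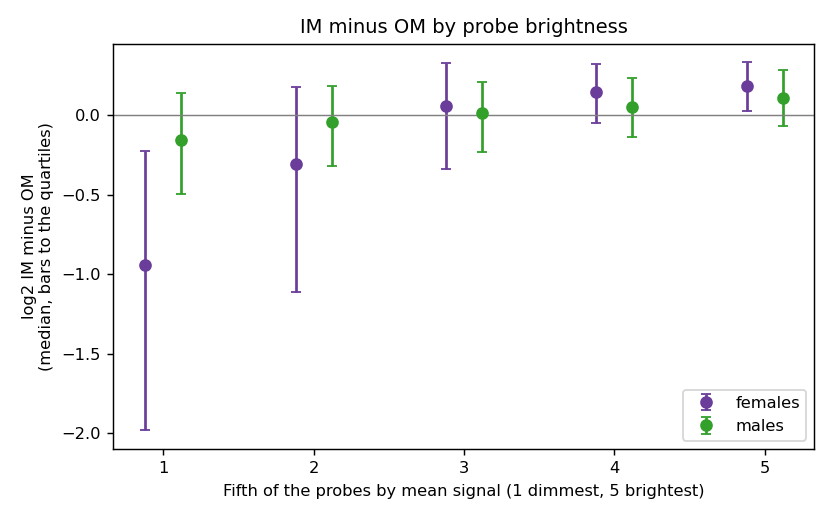
Median IM minus OM difference in log2 relative signal (y axis, bars to the quartiles) in females and males for 5 classes of probes by mean signal (x axis, dimmest to brightest). The female median is -0.94 in the dimmest and 0.18 in the brightest class, and the male medians are -0.15 and 0.11.

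The split by direction depended on the scaling of the arrays. Quantile normalization, by which every array is given 1 common distribution of signal, left 2817 DEG (24.1%) in females but with 1404 higher and 1413 lower in IM, against 281 and 2184 with scaling to the 75th percentile. After adjustment it gave 698 higher and 1121 lower in females, against 46 and 1664. In the pooled fit it gave 342 higher and 836 lower among 1178 DEG (10.1%), and 0 probes passed after adjustment. In males it gave 63 higher and 74 lower (1.17%), and in the difference between the sexes 1001 positive and 1227 negative (19.1%). After adjustment the difference between the sexes was positive in 133 and negative in 508 probes, against 18 and 642. The median over all probes was 0.12 in the pooled fit and 0.16 in females under quantile normalization, against 0.012 and 0.014 with scaling to the 75th percentile. The number of probes that differed in females was thus similar under both scalings, whereas the excess of lower probes was absent by the criteria and smaller after adjustment under quantile normalization.

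From the probes that passed the criteria in the pooled fit and were well above background in all 15 fish, the 2 largest falls and the 2 largest rises are given by fish. None of the 4 passed after adjustment in the pooled fit. Their genes are not named in the files used here.

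Probe Ssa#TC104727 had log2 relative signals of -3.51, -3.58, -3.37 and -2.72 in IM females, against 1.77, 1.55 and 1.46 in OM females. It was -3.34 and -3.01 in IM males, and in the 6 OM males it ranged from -3.53 to -2.13 with a median of -3.36. The 3 OM females were thus far above all other high-level fish, whose values overlapped between the sources. The difference was -4.89 in females (SE 0.32, limma adjusted p = 3.2e-06) and -0.052 in males (SE 0.35, adjusted p = 1.00), and the difference between the sexes was -4.84 (SE 0.47, adjusted p = 0.00048). In the pooled fit it was -2.63 (SE 0.67, adjusted p = 0.0698). Within slides 2 and 7 the female differences were -5.24 and -4.18. Outside the OM females the intensity of this probe was 13.3 to 42.1 units. With normexp background correction the female difference was -2.81, and with quantile normalization -4.80.

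Probe Ssa#DY715938 showed the same arrangement. Its relative signals were -3.54, -3.93, -4.60 and -3.18 in IM females, against 1.02, 0.45 and 1.07 in OM females. In males it was -4.27 and -3.63 in IM, against -4.25 to -2.22 in OM with a median of -3.89. No other high-level fish reached the OM females. The difference was -4.66 in females (SE 0.46, limma adjusted p = 2.9e-05), -0.37 in males (SE 0.49, adjusted p = 1.00) and -2.66 in the pooled fit (SE 0.65, adjusted p = 0.0670). The difference between the sexes was -4.28 (SE 0.67, adjusted p = 0.0039), and the female differences were -4.66 on slide 2 and -4.25 on slide 7. With normexp background correction the female difference was -2.30, and with quantile normalization -4.49.

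Both probes were part of a larger set with a like pattern over the 15 fish. Of 11435 probes, 354 had a Pearson r above 0.9 with Ssa#TC104727 and 293 with Ssa#DY715938, points that share the 3 OM females as their high end. For the 2 largest rises, given below, the numbers were 22 with Ssa#CK990931 and 0 with Ssa#GRASP209735137. High signal was not confined to OM females once the low level was included. Among the 19 low-level fish the highest values were 2.11 for Ssa#TC104727 and 1.22 for Ssa#DY715938, both in low OM male 6, against medians of -2.69 and -3.65. The next highest low-level fish had 0.60 and -0.31.

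Probe Ssa#GRASP209735137 ran the other way in females. It was -0.39, -1.24, 0.15 and -0.96 in IM females, against -3.45, -3.55 and -3.04 in OM females. In males it was -0.92 and -0.91 in IM, against -2.35 to 0.27 in OM with a median of -0.064. The females of the 2 sources did not overlap, while the IM males lay within the range of the OM males. The difference was 2.74 in females (SE 0.54, limma adjusted p = 0.0025), -0.48 in males (SE 0.58, adjusted p = 1.00) and 1.24 in the pooled fit (SE 0.57, adjusted p = 0.269). The difference between the sexes was 3.21 (SE 0.79, adjusted p = 0.0298). With normexp background correction the female difference was 0.99, and with quantile normalization 3.37. Without the 3 OM females, and with no sex term, the difference between the sources was -0.27. Among the 19 low-level fish this probe ranged from -4.52 to 0.47, with a median of -1.76. The 2 lowest low-level fish had -4.52 and -4.13.

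Probe Ssa#CK990931 varied more between fish of 1 group. It was 2.37, 1.70, 4.62 and 3.31 in IM females, against 0.94, -0.36 and 1.81 in OM females. In males it was 4.29 and 2.16 in IM, against 2.11 to 3.96 in OM with a median of 2.77. The females overlapped, as the lowest IM female lay below the highest OM female, and so did the males. The difference was 2.20 in females (SE 0.72) and 1.29 in the pooled fit (SE 0.57), and neither passed after adjustment (limma adjusted p = 0.0562 and 0.247). In males it was 0.25 (SE 0.77), and the difference between the sexes, 1.95 (SE 1.05), had an adjusted p of 0.363. Among the 19 low-level fish the relative signal of this probe ranged from -1.79 to 5.06, with a median of 2.45.

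**Figure D5:**
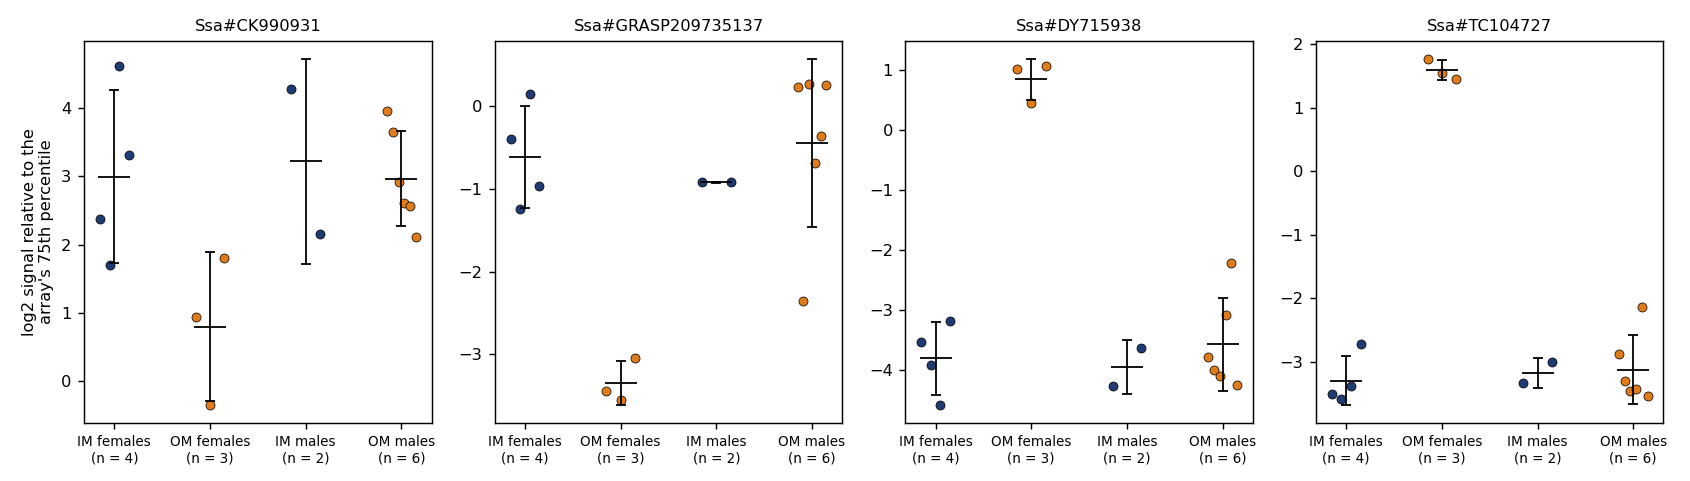
Log2 signal relative to the 75th percentile of the array (y axis) of 4 probes in IM females, OM females, IM males and OM males (x axis), 1 point per fish, with the mean and SD as bars. For Ssa#DY715938 and Ssa#TC104727 the 3 OM females lie at 0.45 or more and at 1.46 or more, and the other 12 fish lie at -2.13 or less.

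The source difference at the high level was set against that at the low level in a fit of all 34 arrays, averaged over the sexes. At the high level 1863 of 12884 probes (14.5%) were DEG, 17 higher and 1846 lower in IM. At the low level, over 8 IM and 11 OM fish, 278 (2.16%) were DEG, 238 higher and 40 lower in IM. At each level 0 probes passed after adjustment of limma's p-values in this fit, with 2196 at an unadjusted p under 0.05 at the high level and 653 at the low level, each of 12884. The difference between the levels itself passed the criteria in 1070 of 12883 probes (8.31%), 30 positive and 1040 negative, against 224 positive and 519 negative under quantile normalization. After adjustment 0 probes passed (limma, with 1212 at an unadjusted p under 0.05), so no single probe was shown to respond to mineral source in a different way at the 2 levels.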

How the data were processed

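Midgut RNA of 34 fish was hybridised to 1-colour (Cy3) arrays, and the 15 high-level arrays were compared. The authors deposited scanner files with the processed intensity of each spot, background-subtracted by Feature Extraction 12.0.1.1 and not scaled between arrays, its median brightness and local background, and flags for spots above background or outlying. The authors also deposited a table of processed intensity values, made with STARS. Of its 214981 values for these arrays, 99.5% lay within 1 unit or 1% of median brightness minus background times 1 factor per array.

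Here the log2 of the processed intensity minus each array's 75th percentile was used. Control spots and 393 outlier spots were left out, and 0 spots were saturated. Dim spots share a floor value set by the software, at 4.18% to 25.6% of probes per array. Probes with a signal well above background on 6 or more arrays were fitted with limma 3.58.1 in R 4.3.3, with sex as a term for all fish, or with 1 mean for each source and sex. The study's criteria do not name a test, so limma's unadjusted p was used, beside Benjamini-Hochberg adjusted p under 0.05. Array values were compared by exact permutation tests. The number of arrays and their brightness limit the precision. Pearson r between any pair of arrays was 0.866 to 0.992.

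The named probes were the 2 largest rises and 2 largest falls past the criteria in the pooled fit, taken from probes well above background in all 15 fish. Gene and cell type lists could not be used without gene names. The comparison, lists and rules were chosen with earlier results of these data known. Alternatives were normexp with an offset of 50 on the median brightness, quantile normalization, the authors' values, other filters, all 34 arrays, slide, scan day or fish number as a block, no moderation, no sex term, sexes averaged, the 7 females alone, and each array left out. Chosen after seeing the data were leaving out the 3 OM females, a common floor, each scan day alone, arrays left out in turn for males and for the difference between sexes, and the contrasts of sex within each source.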

Additional observations from a re-analysis of the deposited data

Results flagged for a closer look

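Among 40 groups of values, 4 fish lay far from the rest of their group, and chance alone marks about 1 in 20 such groups. IM female 6 scored 3.67 on the first principal component, against -32.1 for the next highest IM female, and was thus the IM female nearest to the OM females. OM female 4, the dimmest array, scored 68.0 on the second component, against 0.21 for the next OM fish. IM female 1 scored 67.9 on the third component, against 12.1 for the next IM fish, and also had the largest share of probes at the floor, 25.6%. For Ssa#GRASP209735137, OM male 2 had a log2 relative signal of -2.35, against -0.69 for the next lowest OM male.

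The IM minus OM difference differed between females and males in 660 probes after adjustment of limma's p-values. Among the named probes, females minus males was 3.21 for Ssa#GRASP209735137, -4.28 for Ssa#DY715938 and -4.84 for Ssa#TC104727. These differences rest on 4 IM and 3 OM females and on 2 IM and 6 OM males.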

How the results depend on the processing

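In the pooled fit the main counts were 1474 DEG and 49 probes after adjustment. The normexp correction gave 311 and 0, no filter 2803 and 750, only probes above background on all arrays 422 and 1, no sex term 748 and 1, and leaving out the 3 OM females 476 and 0. After adjustment the pooled count was also 0 with quantile normalization, 537 with the authors' values, 0 with all 34 arrays, 1322 with the slide as a fixed block, 105 with it as a random block, 16 with the scan day as a block, 1 without moderation, 978 with the sexes averaged and 22 with a common floor. With each array left out in turn it ran from 3 to 994, and the DEG from 1103 to 1907. Females (2465 and 1710) gave 554 and 74 with normexp, 3861 and 2769 with no filter, 873 and 539 with only probes above background on all arrays, and 1471 and 298 on the second scan day. Without 1 array each they gave 2181 to 2951 and 1253 to 2061. The DEG of males (229) were 137 with quantile normalization, 394 with no filter, 115 with probes above background on all arrays and 123 to 438 without 1 array each, with 0 to 1 after adjustment. The difference between the sexes (2026 and 660) gave 371 and 6 with normexp, 907 and 173 with probes above background on all arrays, and 1604 to 2573 and 151 to 944 without 1 array each. High minus low level (1070 DEG) gave 254 with normexp and 282 with probes above background on all arrays, and 0 after adjustment in every setting run. Normexp moved the median over all probes to -0.15 in the pooled fit. Leaving out probes near the background lowered every count above 0, but it also left fewer probes to test (8016 against 11696 in the pooled fit). The share of DEG was 5.26% against 12.6% in the pooled fit and 10.9% against 21.1% in females. In males 115 of 8015 probes were DEG, against 229 of 11695. The cause of the shifts was not tested.

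With the fish number as a replicate block, the pooled counts were 453 and 0 (498 at an unadjusted p under 0.05) and 229 female probes passed after adjustment. Only females 3 and 4 and males 1 and 2 of each source inform that setting, so it also rests on fewer fish. Whether the numbers pair fish could not be told from 4 pairs, over which the correlation of deviations ran from -0.14 to 0.22. The 2 IM males deviate from their mean by equal and opposite amounts, so the 2 male pairs are not separate observations. Both IM males lay alone on slide 4, so with the slide as a fixed block the pooled difference is that of the females, and males and the difference between the sexes could not be fitted. Of single probes, Ssa#GRASP209735137 turned to -0.27 over both sexes without the 3 OM females and with no sex term. Across the alternative settings of the pooled fit, Ssa#CK990931 passed the criteria in 15 and failed them in 15. Ssa#GRASP209735137 passed in 13, failed with the same sign in 16 and turned in 1. Each of the 2 largest falls passed in 27 and failed in 3. In males Ssa#TC104727 turned to 0.034 with quantile normalization and ran from -0.22 to 0.15 without 1 array each, being positive without IM male 1 (0.11) and OM male 6. Ssa#CK990931 in males ran from -0.81 without IM male 1 to 1.32 without IM male 2.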
